A study of Mus musculus with 40 samples.

Results

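Protein-coding genes with several separate promoters carrying H3K4me3, the histone mark of active and poised promoters, were described in brown adipose tissue of mice (C57BL/6N, wild type). H3K4me3 peaks of 8 mice were merged into 28739 regions, and 16656 of them had a peak in 5 or more mice. A gene was a member when its annotated start sites lay inside 2 or more of these regions with a gap of 2000 bp or more between them. Of 20807 protein-coding genes on chromosomes 1 to 19, 12395 had a start site in at least 1 such region and 407 were members, which is 1.96% of all and 3.28% of the marked genes. The members held 842 gene and promoter pairings in 837 regions. The members were chosen by the presence of H3K4me3 peaks, so its presence and values are given as a description and were not tested.

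The series holds 40 chromatin immunoprecipitation sequencing (ChIP-seq) libraries of 8 mice, namely an input and a library each for H3K27ac, H3K27me3, H3K4me1 and H3K4me3. All mice were 20 weeks old. The warm mice were not exposed to cold, while the cold mice spent 24 h at 4 °C, and the food was normal chow diet (NCD) or high-fat diet (HFD), the latter given for 12 weeks from 8 weeks of age. Each condition had 2 mice: warm on NCD (mice 1 and 2), cold on NCD (4 and 5), warm on HFD (7 and 8) and cold on HFD (10 and 11). The study's methods leave it possible that a library pooled 2 mice, and the design text names the depot inguinal where the methods name the interscapular depot (iBAT). Whether the 2 libraries of a condition came from separately kept animals is not stated, so p-values measure the spread between these libraries.

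Peak lists differed widely in length. H3K4me3 lists held 13517 (mouse 7) to 24104 (mouse 11) peaks and H3K27ac lists held 3224 (mouse 7), 14511 (mouse 10), 16889 (mouse 1) and 28433 to 40604 peaks in the other mice. H3K4me1 lists held 12, 18 and 592 peaks in mice 7, 10 and 1, and H3K27me3 lists held more than 1392 peaks only in mouse 5, with 6428. Of the brown adipocyte markers, 12 of 12 had a recurrent H3K4me3 region at a start site and 11 had H3K27ac there in 6 or more mice. The same was found for 1 of 10 skeletal muscle, 1 of 8 macrophage and 7 of 8 endothelial markers, and the part of other cell types in the results below was not tested. In bulk tissue, fewer cells of a type and fewer marked alleles per cell cannot be told apart.

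Many mammalian genes start transcription at more than 1 promoter, which changes the first exon and may change the amino end of the protein. H3K4me3 marks the start of most active genes and also CpG-rich promoters that are poised. H3K27ac is deposited at promoters and enhancers in active use, so its presence tells apart marked promoters that differ in activity, while H3K27me3 is the mark of Polycomb repression.

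Promoter sequence upstream of the start site is shown for 5 genes whose promoters differ in H3K27ac or in CpG content, and for the 2 promoters whose H3K27ac was found in the cold mice only. Each line gives the 200 bases before the most 5′ annotated start site in the region, from GRCm38, on the strand of the gene from 5′ to 3′, with every CG dinucleotide in capitals. Promoters of a gene are numbered from its 5′ end. None of these stretches overlapped an annotated exon.
Pparg promoter 1 (plus strand, chr6:115360751-115360950): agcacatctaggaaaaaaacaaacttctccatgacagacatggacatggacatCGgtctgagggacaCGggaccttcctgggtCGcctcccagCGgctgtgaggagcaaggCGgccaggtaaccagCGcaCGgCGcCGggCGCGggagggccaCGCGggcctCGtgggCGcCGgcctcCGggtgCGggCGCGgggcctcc
Pparg promoter 2 (plus strand, chr6:115421866-115422065): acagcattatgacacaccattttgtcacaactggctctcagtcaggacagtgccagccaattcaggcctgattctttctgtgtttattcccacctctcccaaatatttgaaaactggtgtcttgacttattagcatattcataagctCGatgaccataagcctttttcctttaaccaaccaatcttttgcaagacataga
Esrrg promoter 1 (plus strand, chr1:187608829-187609028): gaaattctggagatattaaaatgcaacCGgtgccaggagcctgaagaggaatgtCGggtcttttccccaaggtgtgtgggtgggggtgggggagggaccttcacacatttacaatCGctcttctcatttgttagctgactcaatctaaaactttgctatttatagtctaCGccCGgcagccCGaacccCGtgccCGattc
Esrrg promoter 2 (plus strand, chr1:187997627-187997826): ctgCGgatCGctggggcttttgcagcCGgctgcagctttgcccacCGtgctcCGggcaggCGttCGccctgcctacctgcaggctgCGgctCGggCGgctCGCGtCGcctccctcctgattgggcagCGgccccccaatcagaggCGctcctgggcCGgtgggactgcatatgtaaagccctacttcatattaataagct
Pde4a promoter 1 (plus strand, chr9:21165514-21165713): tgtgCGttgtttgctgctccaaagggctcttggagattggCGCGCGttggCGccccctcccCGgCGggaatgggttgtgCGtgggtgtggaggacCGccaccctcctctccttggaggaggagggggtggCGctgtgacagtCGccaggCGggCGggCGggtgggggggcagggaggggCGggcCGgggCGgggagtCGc
Pde4a promoter 2 (plus strand, chr9:21183903-21184102): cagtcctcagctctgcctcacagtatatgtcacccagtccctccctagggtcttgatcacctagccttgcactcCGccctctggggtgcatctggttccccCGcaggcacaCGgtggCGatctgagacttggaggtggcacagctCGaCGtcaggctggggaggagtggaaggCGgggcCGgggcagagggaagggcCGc
Tcf7l2 promoter 1 (plus strand, chr19:55741620-55741819): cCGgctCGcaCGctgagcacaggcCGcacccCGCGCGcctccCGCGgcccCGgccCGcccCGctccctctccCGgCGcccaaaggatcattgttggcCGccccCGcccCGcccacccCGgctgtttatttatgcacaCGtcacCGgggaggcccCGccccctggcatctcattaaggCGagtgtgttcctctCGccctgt
Tcf7l2 promoter 2 (plus strand, chr19:55895310-55895509): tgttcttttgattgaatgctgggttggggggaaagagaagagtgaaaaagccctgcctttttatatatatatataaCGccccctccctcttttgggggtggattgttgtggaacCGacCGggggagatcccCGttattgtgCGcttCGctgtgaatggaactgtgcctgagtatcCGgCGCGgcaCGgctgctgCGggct
Tpm1 promoter 1 (minus strand, chr9:67049407-67049606): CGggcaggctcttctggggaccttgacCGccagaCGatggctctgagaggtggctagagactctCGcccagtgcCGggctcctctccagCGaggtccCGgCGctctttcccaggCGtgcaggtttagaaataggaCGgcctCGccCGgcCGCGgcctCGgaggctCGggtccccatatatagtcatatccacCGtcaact
Tpm1 promoter 2 (minus strand, chr9:67043963-67044162): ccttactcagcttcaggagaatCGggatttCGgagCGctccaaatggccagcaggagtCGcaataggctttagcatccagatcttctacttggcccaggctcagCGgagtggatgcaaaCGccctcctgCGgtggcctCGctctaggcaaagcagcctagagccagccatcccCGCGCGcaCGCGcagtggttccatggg
Gcnt2 promoter 2 (plus strand, chr13:40886993-40887192): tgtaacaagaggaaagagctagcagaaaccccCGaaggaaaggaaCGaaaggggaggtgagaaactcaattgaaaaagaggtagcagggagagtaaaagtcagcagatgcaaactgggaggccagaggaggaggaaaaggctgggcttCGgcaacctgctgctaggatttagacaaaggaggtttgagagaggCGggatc
Plec promoter 4 (minus strand, chr15:76195711-76195910): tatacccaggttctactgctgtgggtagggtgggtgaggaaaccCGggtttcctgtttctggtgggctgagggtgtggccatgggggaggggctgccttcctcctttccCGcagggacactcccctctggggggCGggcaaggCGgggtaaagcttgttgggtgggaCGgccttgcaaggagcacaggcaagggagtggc

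The pair of promoters of Pparg, the master regulator of adipocyte differentiation, stood furthest apart in these stretches, with 20 CG dinucleotides before promoter 1 and 1 before promoter 2. In Esrrg, which encodes oestrogen-related receptor gamma, a driver of oxidative metabolism, the order was the other way round, with 8 before promoter 1 and 16 before promoter 2. Pde4a, a phosphodiesterase that degrades cAMP, had 18 and 9, and Tcf7l2, a transcription factor of the Wnt pathway, had 23 and 11. Tpm1, the gene of an actin-binding tropomyosin, had 17 and 13. The promoters found with H3K27ac in cold mice only, promoter 2 of Gcnt2 and promoter 4 of Plec, had 4 and 5.

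Most members had a pair of promoters. There were 383 members with 2 promoters, 20 with 3 and 4 with 4, the latter being Ablim1, Dab2ip, Plec and Tcf4. All recurrent start-site regions of a member were counted as promoters, so that promoter 4 of Plec, 1896 bp from promoter 3, was included. The largest gap between neighbouring promoters had a median of 25766 bp. Its highest value was 2854393 bp in Fgfr2, a fibroblast growth factor receptor, whose promoter 1 is also a start of Ctbp2. At the distance limit, Set, with a gap of 1994 bp, lay just outside and Nkiras2, with 2049 bp, just inside. Of 435 later promoters, 404 (92.9%) lay in an intron of the longest transcript starting at the first promoter, 209 of them in its intron 1, while 21 lay in an exon and 10 beyond its end. In 250 of 407 members (61.4%) no annotated start codon was shared by all promoters, among them Pparg, Pde4a, Scp2 and Tef. The remaining members had a start codon that every promoter could use, among them Esrrg, Acsl1, Akt2 and Sirt1. Of the 842 pairings, 106 (12.6%) were also a start of another protein-coding gene.

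Later promoters were poorer in CpG dinucleotides than first promoters, for their base composition. CpG observed over expected, in 300 bp around the start site, had a median of 0.741 at first promoters, 0.551 at later promoters and 0.773 at the 10779 start-site regions of genes that are no members. A value of at least 0.6 was found at 72.7% of first, 44.8% of later and 75.7% of other promoters, as the cumulative plot of CpG content shows. The 6 letters TATAAA, searched on both strands of the same 300 bp, were present at 4.67% of first, 6.90% of later and 6.58% of other promoters. The full cAMP response element TGACGTCA was present at 2.46%, 2.99% and 3.62%. The letters CCAAT were present at 30.7%, 30.6% and 37.9%. None of these strings contains another, and a match is a description of the sequence only.

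**Figure D1:**
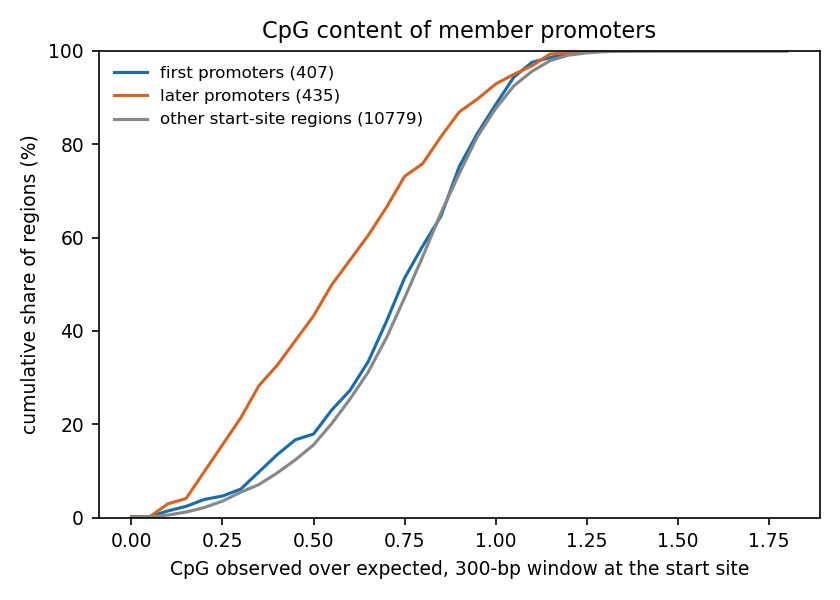
Cumulative share of regions (vertical axis, percent) against CpG observed over expected in the 300 bp around the start site (horizontal axis), for 407 first promoters, 435 later promoters and 10779 other start-site regions. The line of later promoters lies above the others, with a median of 0.551 against 0.741 for first promoters and 0.773 for other regions.

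H3K27ac was found at about as many member promoters as at other marked start sites, and about as often at the first as at the last promoter. An H3K27ac peak overlapped 51.1%, 68.6%, 54.7%, 69.2%, 9.44%, 63.3%, 33.8% and 69.7% of the 837 regions in mice 1, 2, 4, 5, 7, 8, 10 and 11, a mean of 52.5% ± 21.2 (SD, n = 8). Mouse 7 stood lowest and mouse 10 next, in the order of their list lengths, and without these mice the mean was 62.8% ± 8.03 (SD, n = 6). At other start-site regions the mean was 53.9%, and within mice members differed from them by −1.38 ± 3.42 percentage points (SD, n = 8), being higher in 3 of 8 mice. The first promoter exceeded the last by −0.891 ± 4.35 percentage points (SD, n = 8), being higher in 5 of 8 mice. Both differences were smaller than their spread over mice. The share in cold mice was 56.8% ± 16.8 and in warm mice 48.1% ± 26.8 (SD, n = 4 each), and it was 44.1% ± 27.9 on HFD and 60.9% ± 9.33 on NCD (SD, n = 4 each), with overlapping ranges in both comparisons.

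Single mice stood apart in which kind of promoter was marked. In mouse 4 the first promoters were at 50.1% and the last at 59.0%, and in mouse 10 they were at 31.2% and 36.1%. In mouse 1 they were at 54.3% and 49.6%. The content of CpG moved with this, since in mouse 4 H3K27ac was at 49.3% of the 420 member promoters with higher and at 60.2% of the 417 with lower CpG observed over expected, in mouse 10 at 29.5% and 38.1%, and in mouse 1 at 54.8% and 47.5%. Its part in the difference was not tested.

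**Figure D2:**
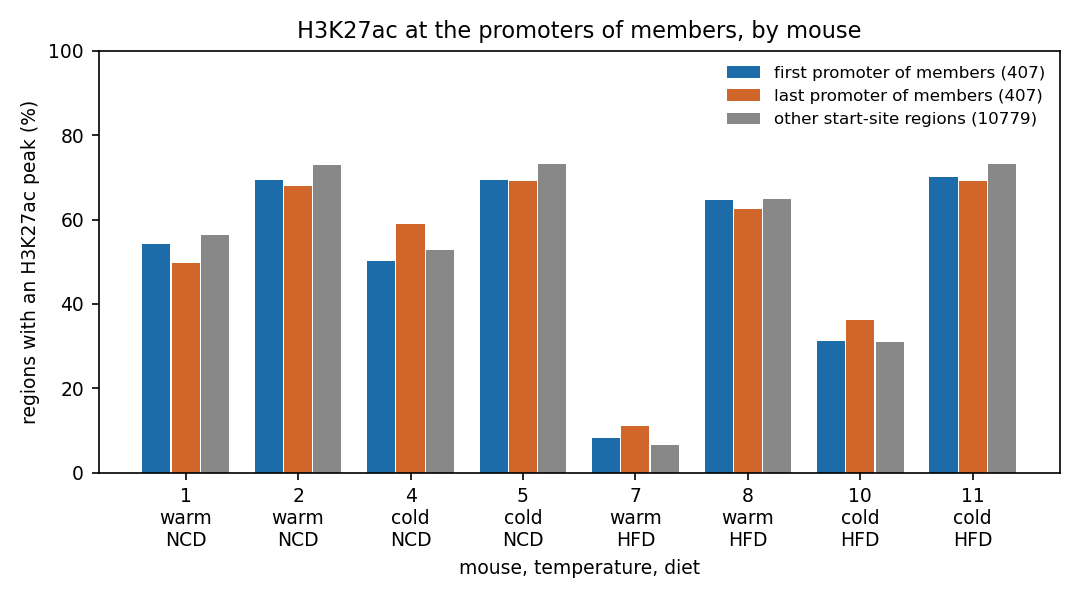
Share of regions with an H3K27ac peak (percent) by mouse, for the first and the last promoter of the 407 members and for 10779 other start-site regions, with 1 bar for each share and no error bar because each bar is 1 library. Mouse 7 has the lowest bars (8.35%, 11.1% and 6.63%), and the first and last promoters change order between mice.

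Some members, called split here, had H3K27ac at 1 promoter in most mice and at another in hardly any. Where a split member had more than 2 promoters, a further one could also hold H3K27ac. An example is Arhgef2, with H3K27ac at both promoters 2 and 3 in 7 mice. A split member had a promoter with H3K27ac in 6 or more of 8 mice and another with H3K27ac in 0 or 1 mouse. There were 60 split members (14.7% of 407), 44 of them with no H3K27ac at the other promoter in any mouse. The same count was not made for neighbouring start sites of different genes, so it is a description of the members only. In 98 members every promoter had H3K27ac in 6 or more mice, 40 members had none at any promoter in any mouse, and 209 were in between. Of the 52 split members with 2 promoters, the first held H3K27ac in 24 and the second in 28. Without mice 7 and 10, and with 5 of the 6 other mice required, there were 78 split members.

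In cAMP signalling and energy metabolism, Esrrg and Pde4a were split in opposite directions along the gene. Esrrg had H3K27ac at promoter 1 in 7 mice, with a fold enrichment over background of 3.36 (lowest), 10.2 (median) and 13.2 (highest), and at promoter 2, which lies 387117 bp downstream in intron 2, in 0 mice. H3K4me3 was nevertheless called at promoter 2 of Esrrg in all 8 mice, at a fold of 3.51 to 22.1. Pde4a had no H3K27ac at promoter 1 in any mouse, and at promoter 2, in intron 1, it had H3K27ac in 7 mice with a fold of 5.82 (lowest), 8.28 (median) and 15.3 (highest). Prkag2, which encodes a regulatory subunit of the AMP-activated kinase, had H3K27ac in 7, 3 and 0 mice from promoter 1 to promoter 3. For each of these genes the mouse without a peak at the acetylated promoter was mouse 7, whose H3K27ac list was the shortest.

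Among transcription factors, Tcf7l2 had H3K27ac at promoter 1 in 7 mice, with a fold of 6.89 (lowest), 9.39 (median) and 16.0 (highest), and at promoter 2 in 0 mice, where H3K4me3 was called in 6 mice. Nr4a1, an orphan nuclear receptor induced by adrenergic signals, had H3K27ac at promoter 1 in mouse 11 only and at promoter 2 in 6 mice. When the H3K27ac peak had to cover at least 25% of the region, the promoters of Nr4a1 no longer differed in the number of mice. Looked at after their values were seen, the retinoid receptor genes Rarg and Rxrg had H3K27ac at promoter 1 in 0 mice and at promoter 2 in 7 mice. So had Sox6, a transcription factor gene of the Sox family.

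Among cytoskeletal genes, Tpm1 and Palld, which encodes the actin-binding protein palladin, had H3K27ac at promoter 1 in 0 mice and at promoter 2 in 6 mice. The fold at promoter 2 was 2.59 to 13.4 in Tpm1 and 4.24 to 13.4 in Palld, and mice 7 and 10 had no peak in either gene. Where 1 of the promoters belongs to a neighbour as well, the split does not separate transcripts of the member alone. H2-DMa, chosen after its values were seen, had H3K27ac in 8 mice at promoter 1, which is also a start of Brd2, and in 0 mice at promoter 2. In all, 11 of the 60 acetylated and 3 of the 60 other promoters were also a start of another protein-coding gene.

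**Figure D3:**
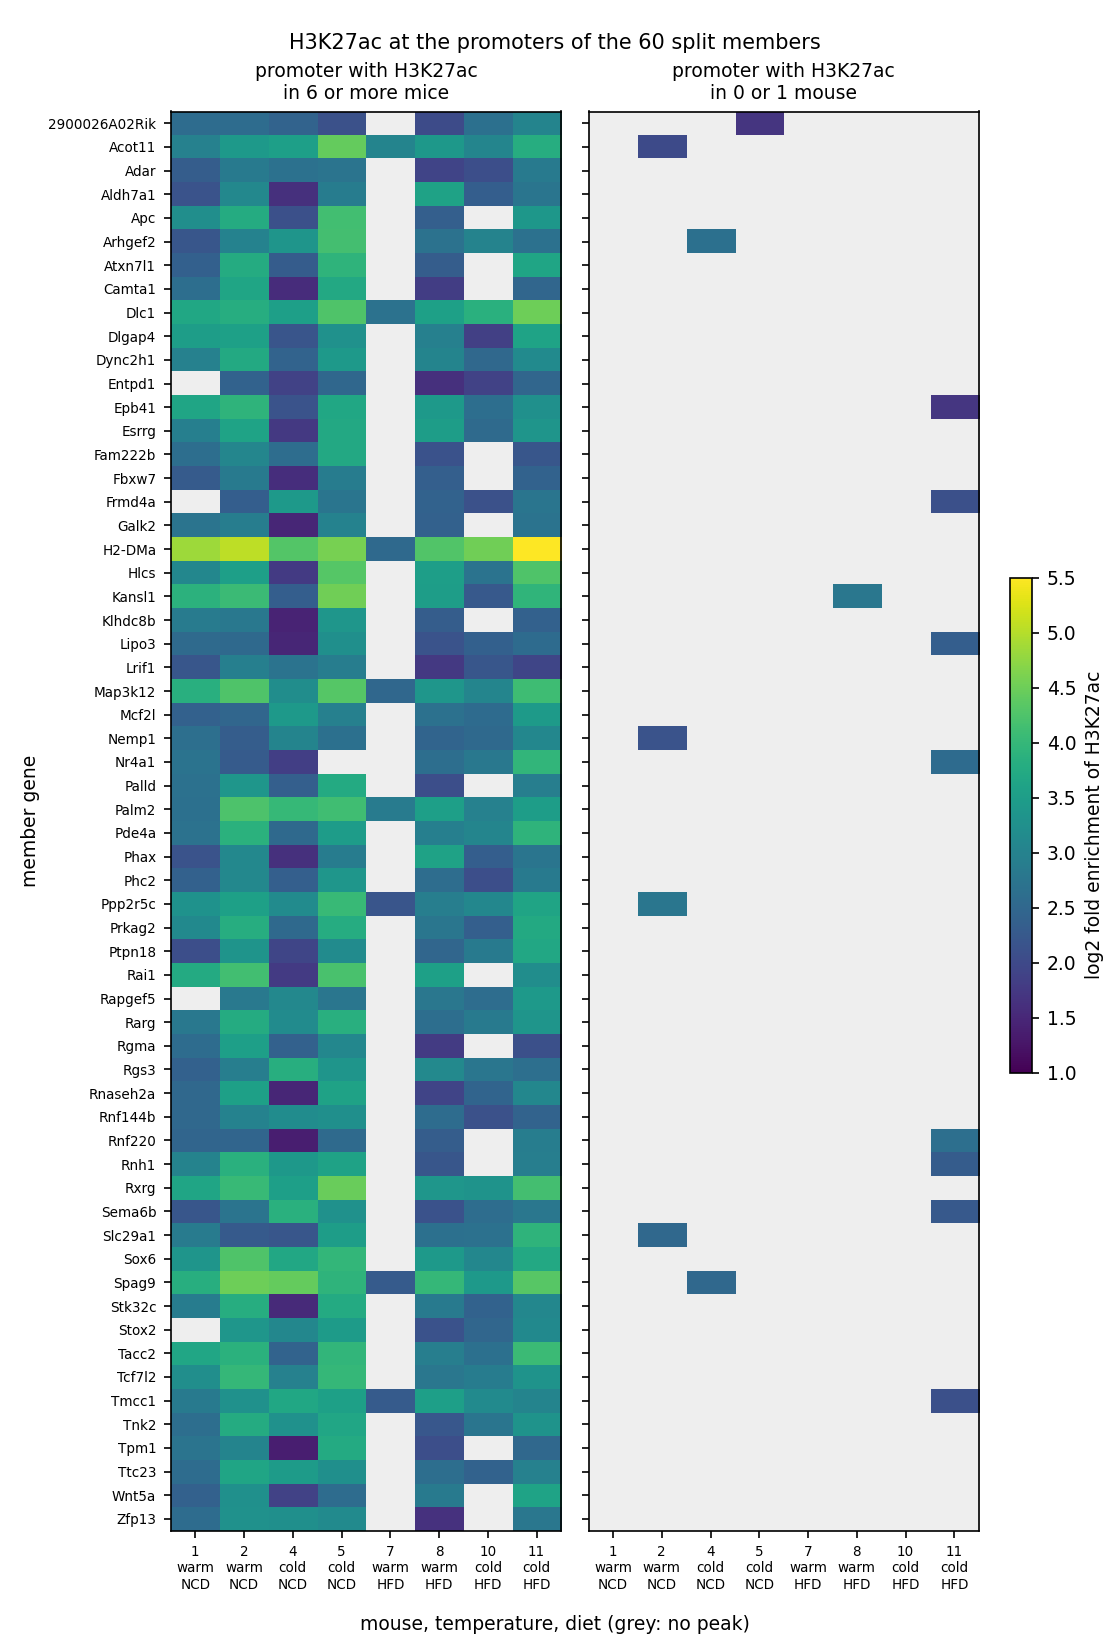
H3K27ac fold enrichment on a log2 scale (colour) in 8 mice (columns) at the acetylated promoter (left) and the other promoter (right) of the 60 split members (1 gene a line), with grey where no peak was called. The right panel holds 16 coloured cells, and mouse 7 is grey for most genes in the left panel.

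The promoters of split members also differed in the mark that chose them. The acetylated promoter had the wider H3K4me3 region in 57 of 60 members, with a median width of 2429 bp against 1131.5 bp, and the higher median H3K4me3 fold in 53 of 60, with a median of 24.5 against 11.4. H3K4me3 was called in all 8 mice at 51 acetylated and 12 other promoters. A wider region has more bases on which an H3K27ac peak can fall. With coverage of at least 25% of the region required there were 52 split members, and with an H3K27ac peak required within 500 bp of a start site there were 61. CpG content did not order the promoters in this way, as the acetylated promoter had the higher CpG observed over expected in 33 of 60, with medians of 0.663 and 0.649. H3K4me1 was found in at least 1 mouse at 31 acetylated and 15 other promoters, and H3K27me3 at 0 and 9.

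Several genes of lipid handling had H3K27ac at both promoters in nearly all mice. Of the list of lipid and glucose metabolism, 4 of 38 genes were members, and 3 of these had H3K27ac at every promoter in 6 or more mice. Acsl1, which activates long-chain fatty acids, had H3K27ac in 8 mice at both promoters, at a median fold of 10.9 and 13.8. Cd36, a fatty acid transporter, also had it in 8 mice at both, at 19.5 and 15.5, and in mice 4, 8, 10 and 11 a single H3K27ac peak spanned both promoters. Such spanning peaks were few among members, 0 to 3 neighbouring pairs in a mouse. Scp2, a sterol carrier protein gene, had H3K27ac in 7 and 8 mice. Acot7, which hydrolyses acyl-CoA, had it in 6 and 5.

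Pparg had H3K27ac at both promoters in all 8 mice. The fold was 7.96 (lowest), 12.6 (median) and 24.4 (highest) at promoter 1 and 5.53, 10.5 and 17.8 at promoter 2, which lies 51761 bp downstream. Promoter 1 had the higher fold in 6 mice and promoter 2 in mice 4 and 8, so neither group of mice had a promoter of its own. Of the list of nuclear receptors and coregulators, 3 of 25 genes were members, and Rora, which encodes a retinoid-related orphan receptor, had H3K27ac in 3 and 5 mice.

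From each of the other lists, the members with the largest difference between promoters are given first, so these examples are more uneven than their lists. Of the cAMP and thermogenic list, 5 of 29 genes were members. Besides Esrrg and Pde4a, Pde4b had H3K27ac in 8 and 4 mice, Pde4d in 4 and 8, and Crem, a cAMP-responsive transcription factor gene, in 7 at both promoters. Of the list of adipocyte and developmental transcription factors, 4 of 38 were members, of which Foxp1 had H3K27ac in 7 and 4 mice, Stat5b in 5 and 7 and Tef, a clock output gene, in 6 and 7. Of the insulin, growth factor and kinase list, 3 of 30 were members, with Akt2, the insulin-responsive Akt kinase, in 8 and 7 mice and Fgfr2 in 5 and 0. Promoter 1 of Fgfr2 is also a start of Ctbp2, so its H3K27ac cannot be assigned to Fgfr2 alone. Of the chromatin and RNA-processing list, 9 of 31 were members, with Celf2, an RNA-binding protein gene, in 6 and 2 mice, Tet3, a DNA demethylase gene, in 3 and 6, the histone demethylase gene Kdm2b in 3 and 0 and the DNA methyltransferase gene Dnmt3a in 2 and 0. None of these 9 was split, and 3 had H3K27ac at every promoter in 6 or more mice, namely the splicing factor genes Mbnl1 and Mbnl2, with 8 mice at both promoters, and Sirt1 with 6. The promoters of Kdm2b no longer differed when the H3K27ac peak had to cover at least 25% of the region. Those of Dnmt3a no longer differed when it had to lie within 500 bp of a start site. Of the cytoskeleton and adhesion list, 12 of 34 were members, with the cytolinker gene Dst in 0, 5 and 1 mice and Epb41l1, a membrane skeleton gene, in 2 and 7. Of the phosphatase, exchange factor and adaptor list, 4 of 24 were members, with Sh3pxd2a in 2 and 6 mice, Ptprs in 0 and 2, Ptpre in 0 and 1 and Tbc1d1 in 0 and 1. The lists were chosen with earlier results of these data known, so their shares of members, 10.0% to 35.3%, are not read as an enrichment. The share was 1.96% over all genes. It was 3.28% over genes with a recurrent region at a start site, which nearly all genes of the lists had.

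H3K27ac was found at each promoter of the 4 members with 4 promoters, in differing numbers of mice. Ablim1, which encodes an actin-binding protein, had it in 8, 6, 7 and 8 mice from promoter 1 to promoter 4. Tcf4, a helix-loop-helix transcription factor gene, had it in 7, 6, 7 and 7 mice. Dab2ip, a Ras regulator gene, had it in 4, 7, 5 and 7 mice. Plec, which encodes the cytolinker plectin, had it in 2, 3, 7 and 4 mice. Members with 3 promoters varied more, from Myo18a, a myosin gene, with 6, 5 and 6 mice to Ank2, a membrane anchor gene, with 4, 0 and 0 and its relative Ank3 with 0 at each.

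H3K27me3 was read mostly from mouse 5, whose list was the longest. It was found at 51 member promoters of 48 members in any mouse, and 47 of these members had it in mouse 5. In that mouse it was at 5.97% of member promoters, beside 4.65% of other start-site regions. In 22 of the 47 members, mouse 5 had H3K27ac at a different promoter of the same gene that lacked H3K27me3. That mouse had H3K27ac at 69.2% of all member promoters, so this count is not read as particular to these members. The 22 members included Tpm1, Palld, Dst, Palm2, Phc2 and Rgs3, with H3K27me3 at promoter 1 and H3K27ac at promoter 2. Both marks were called on 1 promoter in 2 members, Cald1 and Hoxb6. In the other mice H3K27me3 was at 0 to 4 member promoters, so the pattern rests on 1 library.

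Temperature was compared by the presence of H3K27ac in 4 cold against 4 warm mice. A peak in all 4 cold mice and in no warm mouse was found at 9 of 11616 recurrent start-site regions (0.0775%), and 2 of the 837 member regions were among them. The opposite pattern was found at 0 regions (0%). The member regions were promoter 2 of Gcnt2, which encodes an enzyme that branches glycan chains, at chr13:40886670-40888084, and promoter 4 of Plec at chr15:76194931-76195884. Neither passed Fisher's exact test with Benjamini-Hochberg adjustment over the 11616 regions. The smallest p this exact design can give is 0.0286 and its adjusted p was 1, and 9 regions had an unadjusted p at that value. With 9 such regions among 11616 none could pass the adjustment, so this test cannot decide on single regions.

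At promoter 2 of Gcnt2 the H3K27ac fold was 9.46, 6.03, 4.85 and 3.51 in cold mice 4, 5, 10 and 11, and no peak was called in the warm mice. Promoter 1 of Gcnt2 had H3K27ac in 3 cold mice and no warm mouse, and promoter 3 in 4 cold mice and in warm mouse 8. H3K4me3 at promoter 2 was called in 7 mice, warm mice 1, 2 and 7 included. At promoter 4 of Plec the fold was 4.15, 7.31, 3.99 and 4.21 in the cold mice, again with no peak in a warm mouse. The neighbouring promoter 3 of Plec had H3K27ac in 7 mice of both temperatures, at a fold of 6.40 to 20.2. H3K27ac lists of warm mice included the shortest, that of mouse 7 with 3224 peaks. Without mouse 7 the count of member regions was 2 beside 10 over all start-site regions. Leaving out a warm mouse cannot undo the pattern at a region that remains a member. The part of list length was not tested. At a stricter −log10 q of 5 or more the count was 0 beside 3 over all start-site regions. Without mouse 2 it was 4 beside 31 over all start-site regions, without mouse 8 it was 7 beside 28 and without mouse 10 it was 6 beside 42.

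**Figure D4:**
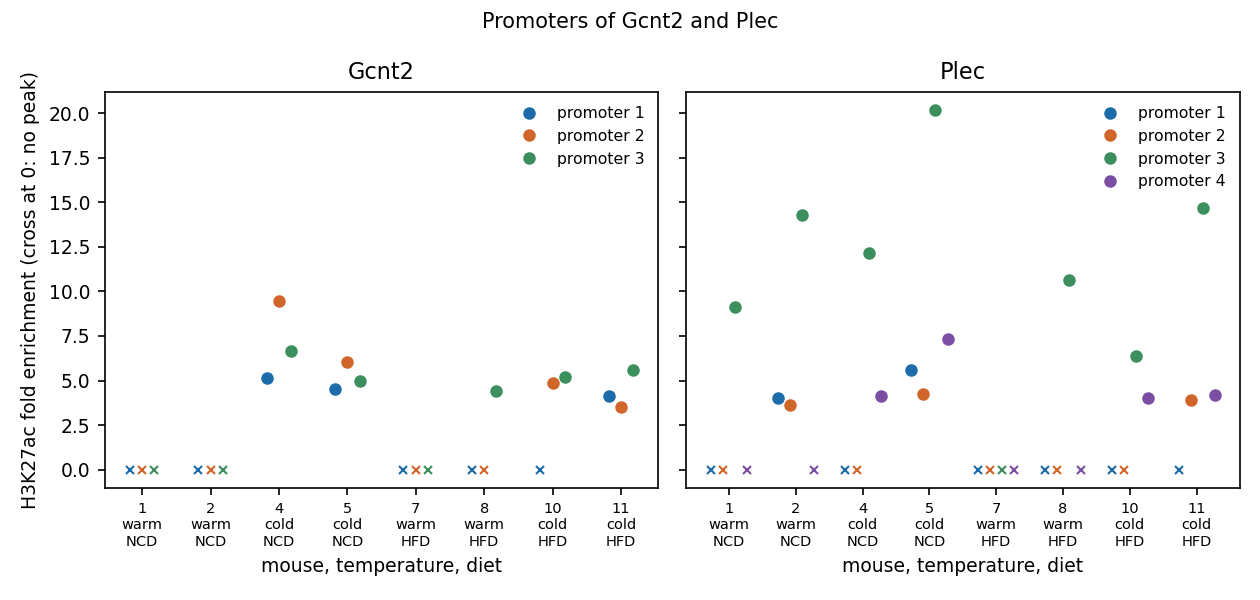
H3K27ac fold enrichment (vertical axis) at the promoters of Gcnt2 and Plec in each of 8 mice, with a point for each called peak and a cross at 0 where none was called. Promoter 2 of Gcnt2 and promoter 4 of Plec have points in cold mice 4, 5, 10 and 11 and crosses in all warm mice.

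Diet separated no member by H3K27ac. A peak in all 4 NCD mice and in no HFD mouse was found at 8 of 11616 regions (0.0689%) and at 0 of 837 member regions, and the opposite at 0 regions (0%). Fisher's exact test gave 8 regions an unadjusted p of 0.0286, the smallest it can give here. With 8 such regions among 11616 none could pass the adjustment, so its 0 calls decide nothing about diet. Without mouse 1 the count of member regions was 2 beside 30 over all regions, without mouse 8 it was 3 beside 26 and without mouse 11 it was 2 beside 86. As a description of H3K4me3, 23 of 837 member regions had a peak in all 4 NCD mice and in at most 1 HFD mouse, beside 226 of 11616 (1.95%). These included promoter 2 of Plec and both promoters of Nfatc2, a calcium-responsive transcription factor gene. The opposite was found at 0 member regions and 1 region in all (0.00861%). HFD mice 7 and 10 had the shortest H3K4me3 lists, and their part in this difference was not tested. For temperature the counts were 3 member regions with H3K4me3 in all cold and at most 1 warm mouse (0.121% over all regions), in Atxn7l1, Cacnb2 and Sh3tc1, and 1 for the opposite (0.0172%), in Ttc23. Among all 28739 merged H3K4me3 regions, where no number of mice was required, 172 (0.598%) had a peak in all NCD mice and no HFD mouse. The opposite was found at 4 (0.0139%). A peak in all cold mice and no warm mouse was found at 43 (0.15%), and the opposite at 3 (0.0104%).

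The lead promoter of a member was the one with the highest H3K27ac fold in a mouse, which does not depend on the scale of a list. It can depend on list length where a promoter had no called peak. A member with H3K27ac peaks at only 1 promoter has 1 lead by this definition, and such members are counted below. Equal folds, as under 1 spanning peak, counted for the promoter with the lower number. Of 272 members with H3K27ac at a promoter in 6 or more mice, 130 (47.8%) had the same lead in every mouse with a peak, and it was the first promoter in 61 and a later one in 69. No member had 1 lead in all 4 mice of a group and another in all 4 of the other, for temperature or diet. When mice without any peak were left out, Acot7 and Mndal had promoter 1 in warm mice 1, 2 and 8 and promoter 2 in all 4 cold mice, among 264 members with a lead in 3 or more mice of each temperature. In Acot7 the fold at promoter 1 was 6.55, 8.18 and 6.32 in these warm mice and 1.99, 5.66 and 5.26 in cold mice 4, 5 and 11. At promoter 2 it was 4.24 in warm mouse 2 and 3.06, 6.49, 7.17 and 10.5 in the cold mice. In cold mouse 5 the values of 5.66 and 6.49 lay close together. Mndal is an interferon-inducible gene whose promoter 1 is also a start of Ifi203. For diet the count was 0 of 209.

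The balance of H3K27ac between neighbouring promoters was tested within mice as the log2 ratio of their folds, in limma with terms for temperature and diet over 2459 pairs of regions, 103 of them in members. With Benjamini-Hochberg adjustment 0 pairs passed for temperature and 0 for diet (0% of all pairs each). At an unadjusted p below 0.05 there were 7 member pairs for temperature, beside 164 of all pairs (6.67%), and 4 for diet, beside 144 (5.86%). The smallest adjusted p was 0.735 for temperature and 0.839 for diet. The unadjusted counts turned on single mice. For temperature there were 21 member pairs beside 369 of all without mouse 5, and 3 to 9 without any other mouse. For diet there were 16 beside 290 without mouse 4, 10 beside 258 without mouse 5, and 1 to 5 without any other. The adjusted test called 0 pairs in each of these fits.

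The member pairs with the smallest p are given as pairs that did not pass. Rusc2, a vesicle trafficking gene, had a log2 ratio of promoter 1 over promoter 2 of −0.11, 0.34 and 1.02 in warm mice 1, 2 and 8 and of −2.57, −0.98, −0.59 and 0.04 in cold mice 4, 5, 10 and 11. The fitted difference of cold from warm was −1.65 ± 0.47 (SE), with an adjusted p of 0.735 in limma. The groups overlapped, and mouse 4 was lowest. Sirt1, the gene of an NAD-dependent deacetylase, had ratios of −0.03, −0.23 and −1.08 in the warm mice and 1.03, 0.87 and −0.19 in cold mice 4, 5 and 11, so that mouse 11 lay among the warm mice, with a fitted difference of 1.02 ± 0.43 (SE) and the same adjusted p. Epc1, a subunit gene of a histone acetyltransferase complex, had −1.06, −0.58 and −2.50 in the warm mice and 0.12, −0.30, 0.16 and −1.12 in the cold mice, with a fitted difference of 1.24 ± 0.47 (SE). For diet, Tef had ratios of −0.57, 1.19, −0.15 and −0.99 on NCD and −0.78 and −2.65 in HFD mice 8 and 11, with a fitted difference of HFD from NCD of −1.58 ± 0.56 (SE) and an adjusted p of 0.839 in limma. The differences for diet were 1.26 ± 0.47 (SE) in Rusc2 and −1.04 ± 0.46 (SE) in Sirt1. The fits had 6 or 7 mice, and mouse 7 gave no ratio for these pairs.

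**Figure D5:**
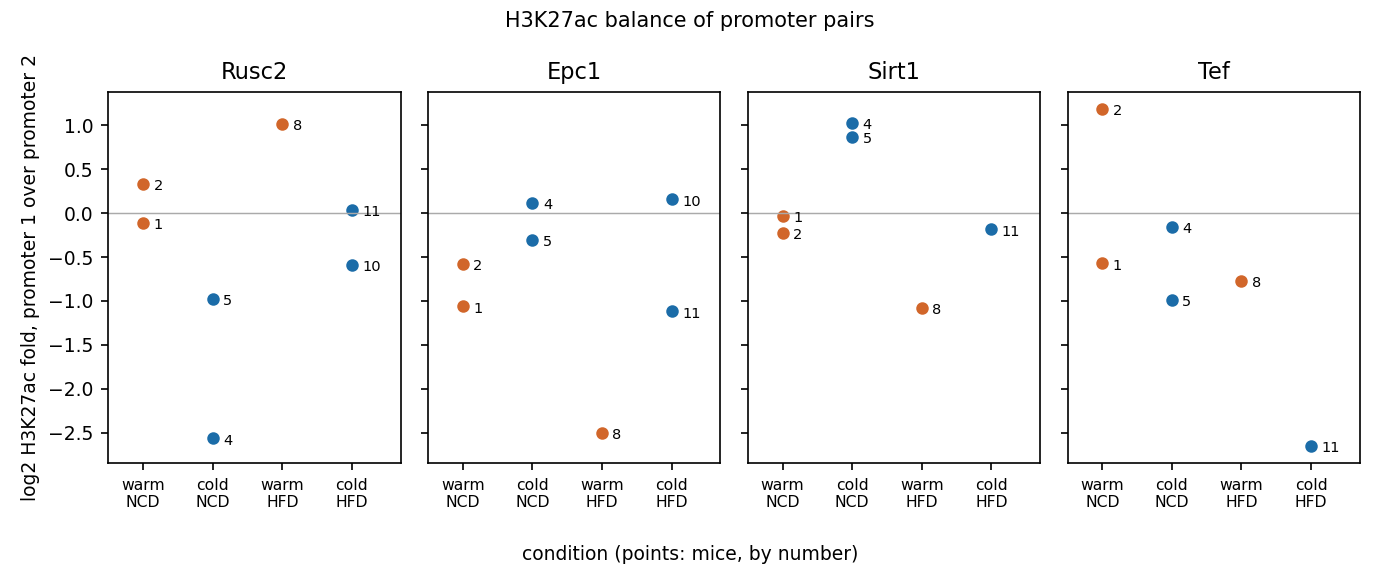
Log2 ratio of H3K27ac fold at promoter 1 over promoter 2 (vertical axis) in Rusc2, Epc1, Sirt1 and Tef by condition (horizontal axis), with a point for each mouse, marked by its number and coloured by temperature (cold blue, warm orange). Cold and warm mice overlap in each of the 4 genes.

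Adcy3 and Ppargc1a were not members, since each had 1 recurrent region at its start sites, in the basic and in the comprehensive annotation alike. Adcy3 encodes an adenylyl cyclase, which makes cAMP. Its region at chr12:4132818-4137440 had H3K4me3 in 8 mice and H3K27ac in mice 1, 2, 5, 8 and 11, at a fold of 7.97, 9.66, 10.8, 4.88 and 11.4. A further region of Adcy3 at chr12:4159537-4162977, downstream of these start sites, holds the start of a processed transcript at 4159600 that only the comprehensive annotation lists. H3K4me3 was called there in all 4 HFD mice, 7, 8, 10 and 11, at a fold of 6.78, 9.13, 9.63 and 11.4, and in no NCD mouse. Of 28739 merged H3K4me3 regions, 4 (0.0139%) had this pattern. With 4 lists this region of Adcy3 fell below the limit of 5, which no region marked on 1 diet alone can reach. H3K27ac was present at this region in all 8 mice, at a fold of 5.77, 9.44, 7.68 and 5.34 in NCD mice 1, 2, 4 and 5 and of 6.66, 11.2, 8.15 and 22.4 in HFD mice 7, 8, 10 and 11. These folds come from lists of unequal length and are not compared between mice. The region was looked at because the gene was named for this question, and was not tested.

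Ppargc1a encodes the transcriptional coactivator PGC-1 alpha. Its region at chr5:51549937-51555670 had H3K4me3 and H3K27ac in all 8 mice, with an H3K27ac fold of 5.59 to 16.9. The distal start listed in the comprehensive annotation lies in a region at chr5:51565820-51568218, where H3K4me3 was called in mice 1, 2, 8 and 11 at a fold of 4.83, 6.96, 7.84 and 12.3. With 4 lists it fell below the limit of 5. H3K27ac was called there in mice 8 and 11, at a fold of 4.11 and 8.45. The mice with this mark included both diets and both temperatures. Further upstream, at chr5:51591685-51592119, where neither annotation lists a start of Ppargc1a, H3K4me3 was called in cold NCD mice 4 and 5 alone, at a fold of 11.5 and 10.9. H3K27ac was called there in 6 mice, namely 1, 2, 4, 5, 10 and 11.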

How the data were processed

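Histone marks were profiled by ChIP-seq in brown adipose tissue of 8 mice, and 1 peak list per mark and mouse was used (32 lists). The authors filtered reads with cutadapt, aligned them to GRCm38 with Bowtie2 and called peaks with MACS2 against the matching input, the versions of which were not given in the sources used. Deposited values are a fold enrichment over background, a ratio the authors took from the peak caller, and −log10 p and −log10 q values, also deposited by the authors per library. The smallest −log10 q was 1.30. The lists hold no read depth, and their length differs between libraries, so fold was tested between mice only as a ratio within a mouse, and other folds are given by mouse as a description.

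H3K4me3 peaks overlapping by 1 bp or more were merged over the 8 lists. Start sites came from the GENCODE M21 basic annotation. A mark was present in a mouse when its peak overlapped the region by 1 bp or more. The fold of the highest overlapping peak was used. Presence was compared by Fisher's exact test, two-sided, and the balance of pairs with H3K27ac at both regions in 6 or more mice by limma, checked on simulated data, with Benjamini-Hochberg adjustment over all regions or pairs and a threshold of 0.05. Mice were grouped by the temperature and diet in their labels, and the 8 inputs were not analysed here. Sequences were read from GRCm38.p6.

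Genes were named by these rules: Adcy3 and Ppargc1a, up to 4 members of each gene list with the most uneven H3K27ac, the 5 members with the most promoters, members separated by group, the 3 smallest p per contrast, and the members next to the distance limit. Others, Crem included, were chosen after their values were seen. The examples given within counts of start codons, H3K27me3 and H3K4me3, the lead promoters of Acot7 and Mndal, and the promoters shown as sequence were also chosen so. The members and lists were chosen with earlier results of these data known. Alternatives covered the limits of the rule, the annotation, the overlap, the strength of peaks and leaving out each mouse. The comprehensive annotation and the reading without mice 7 and 10 were added after seeing the data.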

Additional observations from a re-analysis of the deposited data

Results flagged for a closer look

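A mouse lay far from the others in 7 of the 29 groups of 4 or 8 mice examined over 6 measures of the member promoters, where chance gives about 1 in 20 independent groups. These groups overlap, since they are drawn from the same 8 mice, and H3K4me3 is the mark that chose the members, so the number of such groups is a description. H3K4me3 was called at 60.3% of member promoters in mouse 7, against 88.4% to 99.9% in the other 7 mice and 95.8% to 99.4% in the other warm mice. In mouse 10 it was called at 88.4%, against 98.3% to 99.9% in the other cold mice. H3K27me3 was at 5.97% of member promoters in mouse 5, against 0% to 0.478% in the other mice, 0% to 0.478% in the other cold mice and 0% to 0.119% in the other NCD mice. It was at 0.478% in mouse 11 and at 0% in the other HFD mice. Other start-site regions followed the same mice, with H3K4me3 at 72.9% in mouse 7 and 91.1% in mouse 10 and H3K27me3 at 4.65% in mouse 5 and 0.807% in mouse 11, so that the distances are not particular to members. These mice had the shortest H3K4me3 lists (mice 7 and 10), the longest H3K27me3 list (mouse 5) and the longest of the HFD mice (mouse 11).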

How the results depend on the processing

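The number of members followed the rule and the annotation. It was 407, and it was 167 with H3K4me3 required in all 8 mice and 742 with the comprehensive annotation, under which the split members rose from 60 to 123; with all 8 mice they were 11. It ranged from 375 to 406 when 1 mouse was left out. The mean share of member promoters with H3K27ac, 52.5%, moved by less than its wide spread over mice (SD 21.2) under every alternative. That SD was 8.03 without mice 7 and 10. The share rose to 72.0% with H3K4me3 required in all 8 mice. It fell to 41.0% with 25% coverage required and to 42.8% at −log10 q of 5 or more. It was 51.7% to 58.6% with 1 mouse left out. Split members then numbered 40 to 59. Of the members with H3K27ac at a promoter in 6 or more mice, 47.3% to 56.6% had 1 lead promoter with 1 mouse left out. With H3K4me3 required in all 8 mice it was 43.6% of 149 such members. The limits of 5 lists and 6 mice were kept when 1 mouse was left out, which makes them stricter than among all 8 mice. Member regions separated by temperature numbered 2 (of 9 over all regions). They numbered 0 (of 3) at −log10 q of 5 or more, 15 (of 95) with at most 1 exception and 2 to 7 with 1 mouse left out. By diet they numbered 0 (of 8 over all regions). They numbered 1 (of 7) at −log10 q of 5 or more, 8 (of 147) with at most 1 exception and 0 to 3 with 1 mouse left out. Leaving out mouse 2 (4), 8 (7) or 10 (6) for temperature and mouse 1 (2), 8 (3) or 11 (2) for diet moved these counts. In limma 0 pairs passed under each alternative run. For named genes, the difference between promoters in number of mice was read again with 25% coverage and within 500 bp of a start site. It stayed within 1 mouse in 55 of these readings, moved further in 11 and was reversed in 0. No paired analysis was possible because mouse numbers are not shared between conditions; promoters and marks were compared within mice. List length limits what can be called: a promoter without a peak in mouse 7 or 10 may carry the mark below the calling limit.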
